A study of Mus musculus with 96 samples.

Results

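The transcripts of 37 genes of glycolysis and of the response to low oxygen were followed in single horizontal basal cells (HBCs), reserve stem cells that rebuild the olfactory epithelium (OE) after injury. The genes were taken by symbol from a table of 55487 genes. Of the 37, 18 encode glycolytic enzymes, 17 form a list of targets of the hypoxia-inducible factor (HIF) that, Hk2 aside, holds no enzyme of the enzyme list, and 3 others complete the set (the lactate carrier Slc16a1, the kinase Pdk3 and Hif1a itself). Ldha, Pgk1, Aldoa and Eno1 are known HIF targets as well but are counted with the enzymes, so that "HIF targets" below means the genes of that list. Aldoa has 2 Ensembl genes, so that 38 rows of the table belong to the set. The cells were wild-type HBCs of adult mice aged 6 to 8 weeks, isolated 2 days after an injection of methimazole, a drug that injures the OE, and grown on dishes coated with extracellular matrix. The study's methods give a coating of Tropoelastin followed by one of Fibronectin. Both daughters of a division were picked by mouth pipette, which gave 96 cells in 48 sister pairs, and their poly(A) RNA was sequenced by G&T-seq after synthetic ERCC spike-in transcripts had been added. All cells had the same genotype and treatment, and neither the animal nor the dish of a cell is labelled. The cells were therefore 1 sample of 1 condition, so that every share and correlation given here describes these cells and no test between groups was made.

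Glycolysis turns glucose into pyruvate in the cytosol, and lactate dehydrogenase with the monocarboxylate carriers turns pyruvate into lactate and lets it leave the cell. When oxygen is short, HIF1A escapes the prolyl hydroxylases of the Egln family, enters the nucleus and raises the transcription of glucose carriers, most glycolytic enzymes and genes of mitophagy, pH control and matrix synthesis. HIF binds a short core of the hypoxia response element, ACGTG or GCGTG.

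The counts on genes ranged from 29454150 to 44849003 per cell, with a median of 36152760, and the 37 genes together took between 1.42% and 4.79% of them (median 2.88%). The basal markers Trp63, Krt5 and Krt14 were counted in all 96 cells and Icam1 in 86. Of 18 markers of other cell types, 4 (Kit, Cyp1a2, Stmn2 and Cdh5) had no read in any cell and 13 were counted in 1 to 22 cells. Pecam1 was counted in 92 cells at a median of 3 reads. Were the cells independent, a count of 0 in 96 would leave room, at about 95% confidence, for up to 3.125% of cells with a read. The cells share pairs and sets, so this bound is only a rough guide. The names under which the data were deposited place the cells in 12 sets of 8 cells, or 4 pairs. What these sets stand for is not given in the sources used here, and results are also given with the sets taken into account.

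The promoters of the members were first searched for the HIF core. RefSeq windows from 250 bases before to 50 bases after each start (GRCm38.p6, the build of the files) were found for 35 of the 37 genes. Eno1b and Ndrg1 had none. ACGTG or GCGTG, read on both strands, stood in 43 of 52 windows of the members (82.7%) and in 20 of 22 windows of HIF-target members (90.9%). Of all 32851 windows, 43.8% held either core, 19.6% ACGTG and 32.4% GCGTG. The HIF-target list was drawn from what is known of these genes, so that this share is a description of the list and not independent evidence. The palindrome CACGTG, which is also the core of the E-box, counts as ACGTG on both strands. The 250 bases before the start are shown for Bnip3 and Egln3, the HIF targets whose level over cells was closest to that of the other HIF targets (values below), and for Ldha and Tpi1, the other members closest to it, 5′ to 3′ on the strand of the gene, with the cores in capitals.
Bnip3: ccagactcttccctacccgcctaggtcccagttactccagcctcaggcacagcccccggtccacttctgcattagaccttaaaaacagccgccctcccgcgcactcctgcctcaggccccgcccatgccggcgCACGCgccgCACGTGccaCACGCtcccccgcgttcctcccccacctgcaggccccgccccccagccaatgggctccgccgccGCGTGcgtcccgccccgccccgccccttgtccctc
Ldha: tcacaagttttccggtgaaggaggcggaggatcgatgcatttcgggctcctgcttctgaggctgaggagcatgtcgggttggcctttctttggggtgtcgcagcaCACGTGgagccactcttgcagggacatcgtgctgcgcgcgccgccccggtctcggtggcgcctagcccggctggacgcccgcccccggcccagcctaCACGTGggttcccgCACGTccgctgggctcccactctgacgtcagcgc
Egln3: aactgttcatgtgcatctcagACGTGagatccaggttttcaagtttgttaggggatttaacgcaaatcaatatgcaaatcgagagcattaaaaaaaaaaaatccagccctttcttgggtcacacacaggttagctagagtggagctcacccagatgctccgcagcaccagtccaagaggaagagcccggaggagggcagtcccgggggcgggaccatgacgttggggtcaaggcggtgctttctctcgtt
Tpi1: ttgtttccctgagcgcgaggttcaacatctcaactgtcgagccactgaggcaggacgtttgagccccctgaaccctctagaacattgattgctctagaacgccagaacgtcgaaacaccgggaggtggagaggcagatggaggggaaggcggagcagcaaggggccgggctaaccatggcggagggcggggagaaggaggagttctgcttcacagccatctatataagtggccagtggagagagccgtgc
The Bnip3 window (chr7:138909507-138909756, minus strand) held 1 CACGTG and 3 copies of GCGTG. In the Ldha window (chr7:46845554-46845803, plus strand), CACGTG stood at 2 places beside 1 further ACGTG, and 2 copies of GCGTG lay in the 50 bases after the start, which are not shown. A single ACGTG lay in the Egln3 window (chr12:54203875-54204124, minus strand). The Tpi1 window (chr6:124814159-124814408, minus strand) held neither core, which says only that these letters are not in this stretch.

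Levels are compared between genes as TPM, which is scaled for gene length. The order ran over more than 4 orders of magnitude, from a median of 5619 TPM for Ldha to 0.08 TPM for Pfkfb4, and Eno2 was at 0 in nearly all cells. Lower glycolysis and lactate production led. Ldha, which makes lactate from pyruvate, ranged from 2015 to 9464 TPM. Gapdh, which oxidises glyceraldehyde 3-phosphate, had a median of 4735 TPM (1559 to 8374) and exceeded Eno1 in 59 of 96 cells. The enolase Eno1 had a median of 4329.8 TPM (721 to 6686) and Pkm, the pyruvate kinase of growing cells, 3539.9 TPM (1263 to 5906). Eno1 had at least 28495 reads in every cell. The X-linked phosphoglycerate kinase Pgk1 stood at 701 TPM (170.2 to 1737) and the mutase Pgam1 at 689 TPM (209 to 1477), and since Pgk1 was the higher in 53 cells these neighbours were not separated. The neuronal enolase Eno2 had reads in 2 cells, 195 at the most, and was the 1 member that failed the filter of 10 counts in at least 10% of cells. The other 36 passed.

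In upper glycolysis, the aldolase Aldoa had a median of 2927 TPM (1140 to 5588), and the isomerase Tpi1 followed at 1667 TPM (519.6 to 4101). Aldoa was the higher in 95 of 96 cells. The second Ensembl gene named Aldoa, which lies just upstream on the same strand, had reads in 18 cells, 522 at the most, and is left out below. Gpi1, which turns glucose 6-phosphate into fructose 6-phosphate, stood at 512 TPM (139 to 1087). The hexokinases, which trap glucose in the cell, had nearly equal medians, 103 TPM for Hk1 (0.44 to 269) and 94.6 TPM for Hk2 (3.38 to 265). Hk1 was the higher in 53 cells and Hk2 in 43, and sisters differed in which hexokinase led in 19 of 48 pairs. Among the phosphofructokinases, the committed step, the liver form Pfkl (median 149.7 TPM, 8.90 to 461) exceeded the platelet form Pfkp (73.4 TPM, 0.21 to 236) in 89 cells. The muscle form Pfkm had a median of 0.19 TPM and no read in 29 cells, and 19 cells held at least 1000 reads of it. The brain aldolase Aldoc was of the same kind, with a median of 0.11 TPM, no read in 36 cells and at least 1000 reads in 29.

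Of the glucose carriers, Slc2a1, which encodes GLUT1, had a median of 278 TPM (20.1 to 921), while Slc2a3, the carrier GLUT3, was counted in 1 cell. The transcripts of both lactate carriers were present. Slc16a1 was counted in all cells at a median of 41.9 TPM (0.11 to 116), and Slc16a3, the carrier of glycolytic cells and a HIF target, had a median of 34.0 TPM but a range from 0 to 461. Slc16a1 was the higher in 52 cells and Slc16a3 in 44. Ldhb, the subunit that favours pyruvate, had a median of 62.4 TPM (0 to 515) and was below Ldha in all 96 cells. Its level ran weakly opposite to that of Ldha in sister differences (Spearman's rho = -0.33 over 48 pairs, and -0.12 over 96 cells).

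The regulators were lower and more uneven. Pfkfb3, which makes the activator of phosphofructokinase, had a median of 16.1 TPM (0 to 197), and Pfkfb4, its relative, no read in 34 cells. Of the kinases that inhibit pyruvate dehydrogenase, Pdk3 had a median of 42.2 TPM (0 to 125) and exceeded Pdk1 (17.0 TPM, 0 to 243) in 67 cells. Hif1a, the oxygen-regulated subunit, was counted in every cell at a median of 87.2 TPM (11.5 to 275). Its hydroxylases differed, since Egln3 had a median of 42.0 TPM (0 to 239) and exceeded Egln1 (12.7 TPM, 0 to 50.1) in 75 cells.

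Most of the other HIF targets had wide ranges. Bnip3, a receptor of mitophagy, had a median of 116 TPM and ran from 0.31 to 558 TPM (13 to 21521 reads). Ndrg1, a gene of differentiation and stress, ran from 0.20 to 1076 TPM around a median of 66.4 TPM. Car9, the surface carbonic anhydrase that regulates pH, had a median of 38.9 TPM (0 to 297) and no read in 4 cells. The collagen prolyl hydroxylases P4ha1 (36.7 TPM, 0 to 187) and P4ha2 (31.4 TPM, 0 to 182) led in 49 and 47 cells. Sisters disagreed on which of them was the higher in 25 of 48 pairs. The adenylate kinase Ak4 stood at 14.9 TPM (0 to 117) and the angiogenic factor Vegfa at 13.9 TPM (0 to 83.2). Ankrd37, an ankyrin repeat protein, had a median of 0.68 TPM and no read in 34 cells. Higd1a, a mitochondrial protein of cell survival, was by contrast even, at a median of 158 TPM (2390 to 15783 reads).

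**Figure D1:**
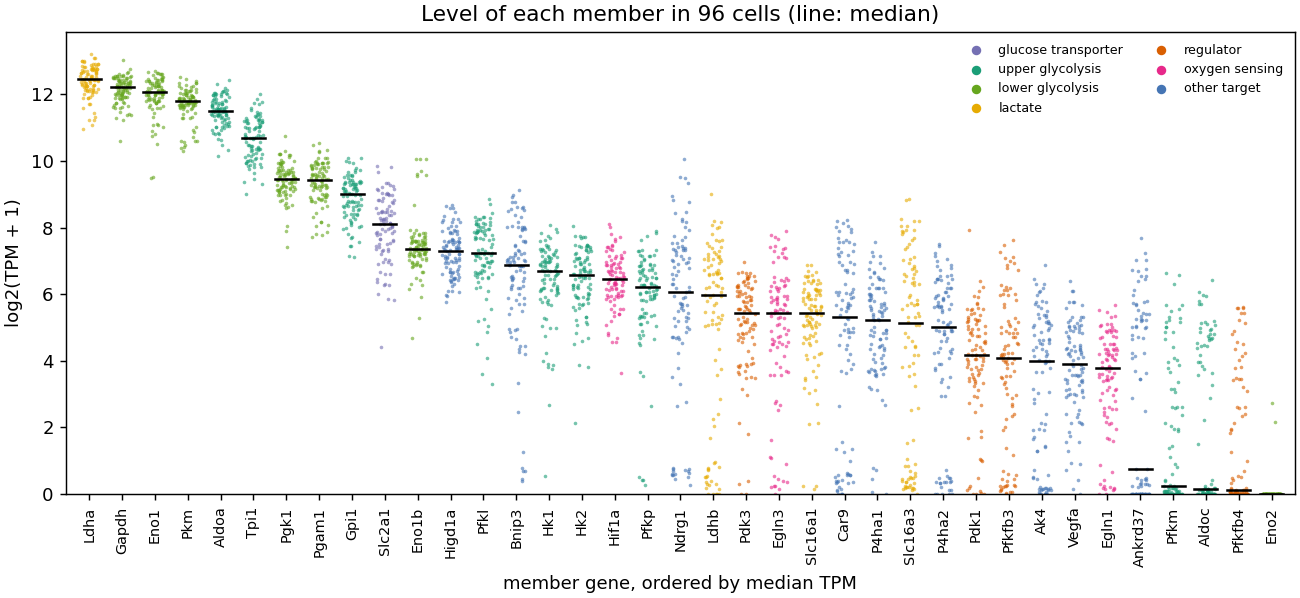
Each point is the level of 1 member in 1 of 96 cells on the log2(TPM + 1) scale, members are ordered by median TPM and coloured by role, and lines mark medians. Ldha, Gapdh, Eno1, Pkm, Aldoa and Tpi1 form a narrow band above a median of 1000 TPM, whereas Slc16a3, Car9, Ndrg1 and Ak4 spread from near 0 to more than 100 TPM.

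The members thus ranged from even to uneven levels over cells. In every cell, 20 of the 37 genes had at least 1 read, beside 31.8% of the 14463 genes that passed the filter. A gene was called variable where the 90th percentile of CPM + 1 over cells was at least 4 times the 10th (CPM, counts scaled to 1 common total over genes in each cell). This held for 25 of 36 members and for 71.8% of all genes, so that the members did not stand out. It held for 7 of 17 enzymes and for 16 of 17 HIF targets, of which Higd1a was the exception. The enzymes were also the more abundant, with a median of 512 TPM against 34.0 TPM for the HIF targets. Among genes counted in every cell, 9 of 20 members and 52.9% of all such genes were variable. The part of level in this difference was not tested. Gapdh had the lowest ratio of the 90th to the 10th percentile (1.80) and Slc16a3 the highest (353). Slc16a3 had at least 1000 reads in 60 cells and fewer than 100 in 28, with 8 cells between. Car9 was split alike, with 60, 27 and 9 cells.

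Whether sisters shared these levels was measured by the intraclass correlation over 48 pairs on log2(CPM + 1), which is 1 where sisters are equal and near 0 where they are no more alike than other cells. The median over the 36 members was 0.46, against 0.11 over all genes. At least 0.5 was reached by 15 members, against 4.4% of all genes. Among genes counted in every cell, 12 of 20 members (median 0.52) and 9.09% of all such genes (median 0.19) reached it. With values centred within the 12 sets, the median was 0.38 and 12 members reached 0.5, beside 3.87% of all genes. Without centring, leaving out set 8, which holds the pair lowest in these genes, brought the number from 15 to 9. The enzymes had a median of 0.50 and the HIF targets 0.34. For comparison, the median was 0.21 over 21 nuclear genes of oxidative phosphorylation, none of which reached 0.5, and 0.60 over 9 cell cycle genes, of which 7 did.

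Apart from Eno1b (described below), Slc16a3 had the highest value. Its intraclass correlation was 0.68 (0.63 to 0.80 when each set was left out in turn). Both sisters were below 100 reads in 10 pairs, neither in 30, and only 1 of them in 8. Hk1 reached 0.66, Bnip3 0.64, Aldoa 0.63, Pdk1 0.55, Ldha 0.55 and Car9 0.54, and each of these stayed above 0.46 whichever set was left out. Centred within sets, Hk1 had 0.55, Bnip3 0.59, Aldoa 0.48, Pdk1 0.56, Ldha 0.55 and Car9 0.59. Differences between sets held 37.0% of the sum of squares of Hk1 and 41.7% of that of Aldoa. Bnip3 was below 100 reads in both sisters of 2 pairs, in 1 sister of 2 pairs and in neither of 44. Eno1 had 0.60, which became 0.32 without set 4, and Ndrg1 0.57, which became 0.40 without set 8. At the other end stood Egln1 (-0.11), Aldoc (-0.08), Pfkfb4 (0.01), Pdk3 (0.01), P4ha2 (0.03) and Pfkm (0.04). Hif1a had 0.20 and Hk2 0.17. The 2 hexokinases thus had like medians, but the value of Hk1 was above that of Hk2 under each omission of a set (Hk1 0.62 to 0.68, Hk2 0.13 to 0.29). P4ha2 was below 100 reads in 1 sister and at least 1000 in the other in 12 pairs, and Pfkfb3 in 11. Slc16a1 had 0.34 over all sets and -0.00 without set 1, so its likeness between sisters rested on that set. The value of Pfkp moved from 0.46 to 0.21 without set 9.

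**Figure D2:**
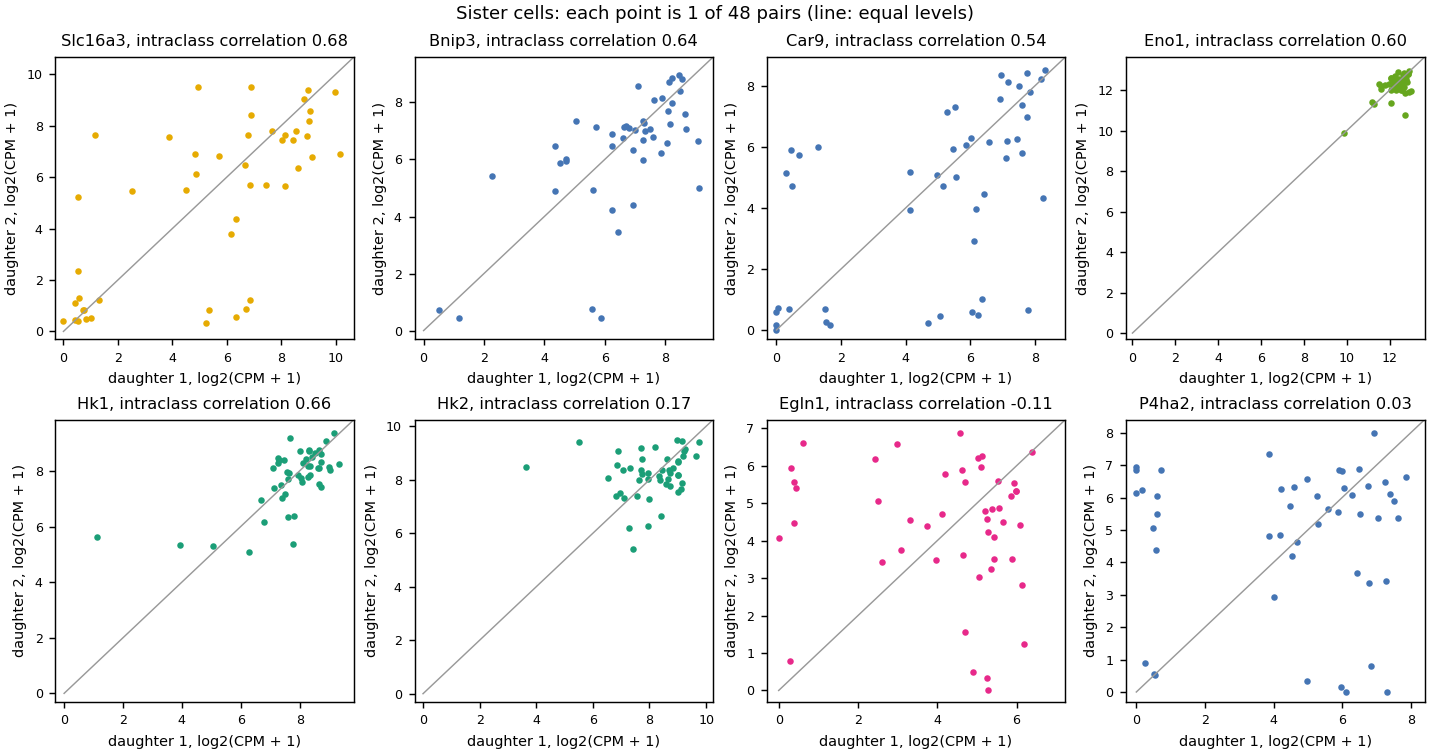
Each point is 1 of 48 pairs, with daughter 1 on the horizontal and daughter 2 on the vertical axis, in log2(CPM + 1), and the line marks equal levels. In Slc16a3 and Bnip3 the pairs spread along the line (intraclass correlations 0.68 and 0.64), with a few cells near 0 beside a high sister. Their sisters still differed by at least 1.5-fold in CPM in 34 and 29 of 48 pairs. Egln1 and P4ha2 scatter widely around the line (-0.11 and 0.03).

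**Figure D3:**
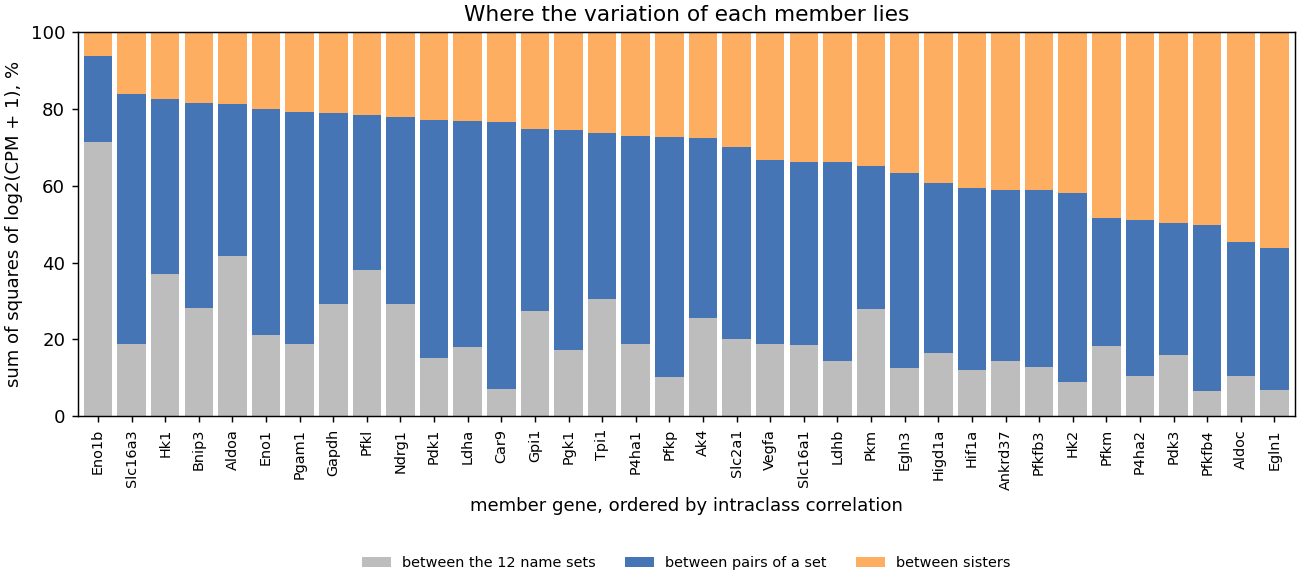
Bars split the sum of squares of log2(CPM + 1) of each of 36 members, in percent, into the part between the 12 sets, between pairs of a set and between sisters. Sisters account for 6.11% in Eno1b and 16.1% in Slc16a3, and for 56.2% in Egln1, against a median of 45.0% over all genes.

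The share of pairs whose sisters differed by a fixed fold was lowest in abundant enzymes. Counts scaled by ERCC size factors differed by at least 1.5-fold between sisters in 8 of 48 pairs for Gapdh (16.7%, exact Clopper-Pearson 95% interval 7.48% to 30.2%) and in 9 of 48 for Ldha and Aldoa (18.8%, 8.95% to 32.6%). The less abundant Eno1b (median 163 TPM), whose reads are hard to tell from those of Eno1, passed in 10 pairs. Eno1, Pkm and Pgk1 passed in 14 pairs each, Pgam1 in 15, and Tpi1 and Gpi1 in 18. In Bnip3 29 of 48 pairs passed (60.4%, 45.3% to 74.2%) and in Egln1 42 of 48 (87.5%, 74.8% to 95.3%). These intervals describe only the sampling of pairs, and they treat the 48 pairs as independent although pairs share sets. The median share of such pairs was 37.5% over the enzymes, 68.8% over the HIF targets and 63.5% over all members, beside 68.8% over all genes. For 21 nuclear genes of oxidative phosphorylation it was likewise 37.5%. Scaled as CPM, the medians were 25.0% over the enzymes, 66.7% over the HIF targets, 33.3% over the oxidative phosphorylation genes and 60.4% over all genes, and Ldha passed in 4 pairs and Gapdh in 6. At least 24 of 48 pairs passed 1.5-fold in 24 of 36 members and in 79.5% of all genes. The median difference between sisters in CPM was 1.12-fold for Ldha, 1.59-fold for Bnip3, 2.92-fold for Egln3 and 3.49-fold for Ldhb.

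Members were also high and low in part in the same cells. The median Spearman's rho between members on log2(CPM + 1) over 96 cells was 0.30 among the 17 enzymes that passed, 0.20 among the 17 HIF targets and 0.26 between HIF targets and the other enzymes, beside 0.0076 among all genes. The cells share sisters, sets and 1 pool of libraries, so that these values are descriptions. Leaving Eno1 and Eno1b aside, whose reads are hard to tell apart (given below), the closest members were Tpi1 and Eno1 (0.75), Tpi1 and Pgam1 (0.75), Gpi1 and Tpi1 (0.73) and Aldoa and Bnip3 (0.71). Ldhb ran weakly opposite to Slc2a1 (-0.28) and Pkm (-0.28). Taken as differences between sisters over 48 pairs, the medians were 0.12 among enzymes and 0.09 among HIF targets, against 0.0027 among all genes. The value of the HIF targets was 0.045 without set 12. Scaled to ERCC, the enzymes had 0.28, the HIF targets 0.11 and all genes 0.03. In CPM sister differences, with the pair of Eno1 and Eno1b (0.90) again set aside, the highest values were those of Eno1 and Pkm (0.58), Pfkp and Eno1 (0.55) and Pgam1 and Pkm (0.54). Scaled to ERCC, the median over cells was 0.46 among enzymes, 0.24 among HIF targets, 0.42 among the oxidative phosphorylation genes (0.07 in CPM) and 0.09 among all genes, a scale that keeps differences in total RNA between cells.

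**Figure D4:**
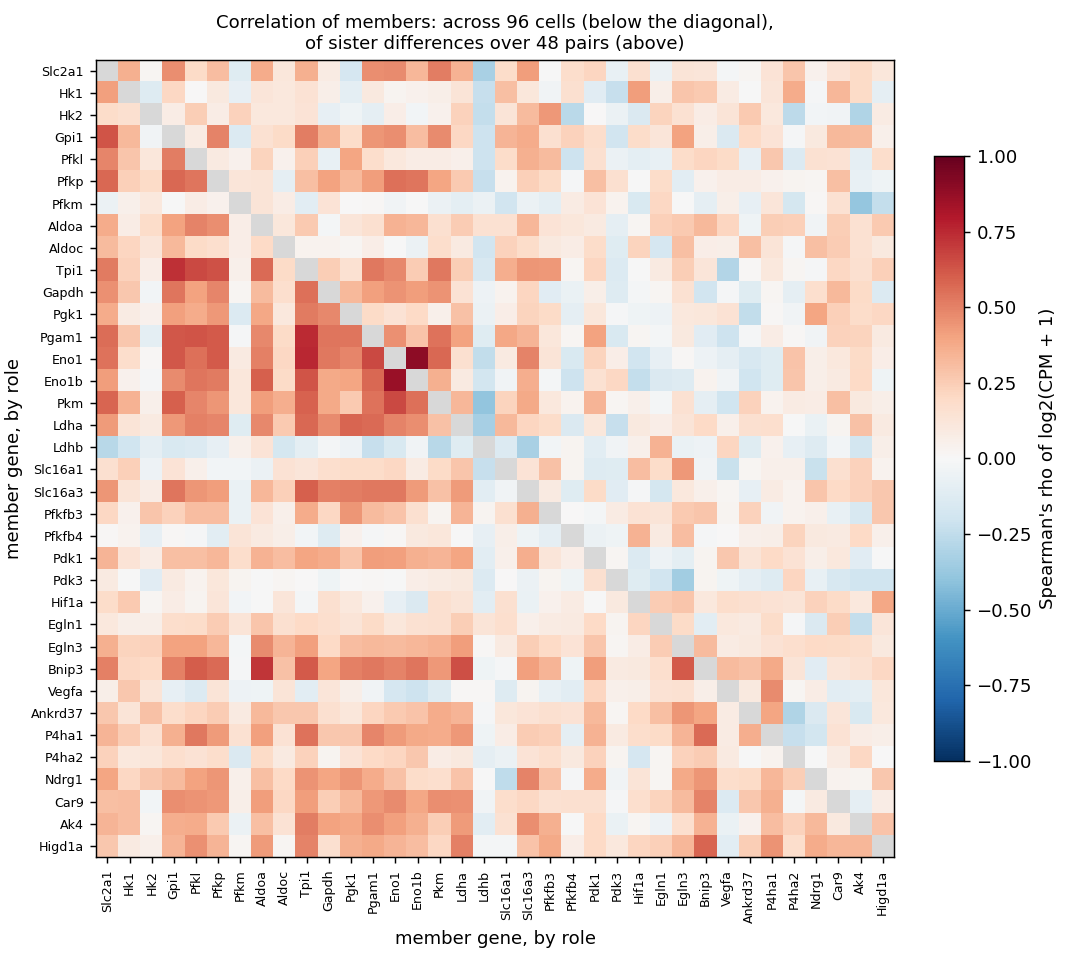
Colour gives Spearman's rho of log2(CPM + 1) between members, over 96 cells below the diagonal and for sister differences over 48 pairs above it, with members in order of role. A block of positive values links Gpi1, Pfkl, Pfkp, Tpi1, Pgam1, Eno1, Pkm and Ldha with Bnip3 (Ldha and Bnip3, 0.64), while Ldhb is pale or blue.

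A HIF-target score, the mean over the 17 HIF targets of their z-scored log2(CPM + 1), gave each cell 1 value. It ranged from -1.33 to 1.09 and had an intraclass correlation of 0.65, or 0.63 centred within sets, with 22.2% of its sum of squares between sets, 59.9% between pairs of a set and 17.8% between sisters. A like score over the enzymes had 0.64. Like scores over the oxidative phosphorylation and cell cycle genes had 0.59 and 0.73, with 20.9% and 13.9% between sisters. A value of this size was thus not particular to the HIF targets. The rho between the HIF-target and enzyme scores was 0.78 over cells and 0.51 in sister differences. It was 0.79 over cells when Hk2 was kept out of the HIF-target score. Over cells, and with a HIF target left out of the score it was set beside, rho with the score was 0.71 for Bnip3, 0.69 for Tpi1, 0.65 for Ldha, 0.61 for Pfkp and 0.59 for Egln3. The order was another in sister differences, where Gpi1 (0.43), Aldoa (0.43) and Egln3 (0.40) were above Tpi1 (0.38), Bnip3 (0.30) and Ldha (0.21). Over cells, Vegfa had 0.07 and Pfkfb4 0.03, and in sister differences both had 0.17. The transcript of Hif1a itself had a rho of 0.19 over cells and 0.38 in sister differences. With values centred within sets, the rho of Bnip3 was 0.69 and that of Ldha 0.72.

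Single pairs show the range. In pair 31 of set 8, the lowest on the score (-1.21 and -1.33), Bnip3 had 38 and 13 reads, Slc16a3 24 and 14, and Car9 none, at 30584904 and 34731406 counts per cell. Most enzymes were present, and the enzyme score was low (-1.62 and -1.36), with Ldha at 61627 and 80084 reads. Pfkm, Aldoc and Eno2 had no read in either cell, while Pgk1 was near its median (744 and 684 CPM against 757 CPM). Hif1a was above its median (307 and 499 CPM against 248 CPM). The basal keratin Krt14 had 87803 and 107304 reads in these cells. Pair 44 of set 11 was low as well (-1.09 and -1.02), with 16 and 25 reads of Bnip3 but 192054 and 157998 of Ldha. Pair 7 of set 2 was the highest (0.78 and 0.86), with 9756 and 6877 reads of Bnip3 and 17525 and 63189 of Ndrg1. The cells of pair 7 held 91 and 30 reads of the mitotic gene Top2a. Pair 9, the next highest (0.56 and 0.95), held 42404 and 38058. Sisters differed most in pair 47 (1.09 and -0.28). Its daughter 1 had 21521 reads of Bnip3 and daughter 2 1040, with 43939 and 3941 of Slc16a3, 13010 and 652 of Egln3 and 311439 and 66023 of Ldha, at total counts of 38385412 and 33245376. Daughter 1 of pair 47 also had the lowest ERCC size factor of all cells (0.38), beside 0.72 in its sister. The gap between sisters was under 0.5 in 40 of 48 pairs, with a median of 0.18. The median score of a set ran from -0.46 in set 8 to 0.40 in set 10.

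With the other features of the cells followed here, the HIF-target score had a rho of at most 0.36 in size over cells. Its rho with a score of 9 cell cycle genes was 0.14 over cells and 0.29 in sister differences. The latter was near the 0.30 of Bnip3. With a score of 21 nuclear genes of oxidative phosphorylation the rho was -0.22 and 0.05. With total counts the rho was 0.24, with the ERCC size factor 0.04 and with the share of mitochondrial reads -0.07. Of 10 genes that the study followed in these cells, Krt14 (0.36) and Trp63 (0.31) had the highest rho over cells. Centred within sets these were 0.22 and 0.28, and in sister differences 0.18 and 0.20, where Suv39h1, a histone methyltransferase, had 0.22. The histone H3.3 genes H3f3a and H3f3b had 0.01 and 0.02 over cells, and H3f3a 0.13 in sister differences. The enzyme score had a rho with Krt14 of 0.48 over cells and 0.45 in sister differences, beside 0.29 and 0.45 with total counts. With H3f3a it had -0.11 and -0.33. The part of total counts in these values was not tested.

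Outside the set, the genes whose level over cells was most like the HIF-target score were Gm6532 (rho 0.71), Bnip3l (0.62), AC160336.1 (0.57), Gm5537 (0.56), Pgam1-ps2 (0.56), Pgk1-rs7 (0.56), Fam162a (0.56), Bnip3l-ps (0.54), Gm9790 (0.52) and Alkbh5 (0.52). Of these 10, Gm6532 is a near copy of Bnip3, Gm5537 and Pgk1-rs7 of Pgk1, Pgam1-ps2 of Pgam1 and Gm9790 of Higd1a, so that their reads may be those of members. Bnip3l, a further mitophagy receptor, was counted in all cells at a median of 114 TPM (24.5 to 436). Fam162a, a mitochondrial protein induced by low oxygen, stood at 428 TPM (81.2 to 1325) with an intraclass correlation of 0.61. Over all 14426 genes ranked, the median rho was 0.01, and 12 genes reached 0.5. None reached -0.5. The 10 lowest were Ybx1-ps2 (-0.42), Glrx (-0.42), Rab5if (-0.40), Gm11560 (-0.39), Rpl5 (-0.39), Eif3g (-0.39), Cnbp (-0.39), Gm15500 (-0.39), Fah (-0.38) and Orc4 (-0.38), among them the ribosomal protein gene Rpl5 and the initiation factor gene Eif3g.

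A further list of 52 genes of glycolysis and low oxygen, none of them a member, gave the surroundings. Of these 38 passed the filter and 11 were counted in every cell. The median intraclass correlation was 0.12, with 3 of 38 at 0.5 or more, and the median rho among them was 0.02, both close to all genes. These 38 genes were also lower in level than the members, with a median of 12.0 TPM against 69.9 TPM. The part of level in this contrast was not tested. Most abundant were Fam162a, the pyruvate dehydrogenase subunit Pdhb (166 TPM), Bnip3l, the surface carbonic anhydrase Car12 (93.2 TPM) and the mitochondrial pyruvate carrier subunit Mpc1 (86.1 TPM). Car12 had an intraclass correlation of 0.76, above every member but Eno1b, and a rho with the HIF-target score of 0.13. Fam162a (0.61), the fructose bisphosphatase Fbp2 (0.55), Bnip3l (0.46) and Ddit4 (0.46) came next, and Pdk4 (-0.24), Mpc2 (-0.23), Insig2 (-0.17), Pdhb (-0.15) and Pgam2 (-0.12) were lowest. Pgk2 and Ppp1r3c were at 0 in all cells, and Hk3 was counted in 5.

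Several enzymes have processed pseudogenes nearly identical to their messenger RNA, and reads can be split among them. Transcripts of other genes matching a member by at least 95% over 150 bases were sought in the GENCODE vM21 set. Pgam1-ps2, identical to Pgam1 over 765 bases, held a median of 20.0% of the reads of the 2 together (14.7% to 22.1%). For Gapdh, 93 copies held 8.74% (7.26% to 10.8%), and for Pgk1 4 copies 8.70% (6.56% to 11.4%). Eno1b is 99.5% identical to Eno1 over 1736 bases, so its level is uncertain. Adding the copies to their members left 14 members at 0.5 or more.

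Eno1b set apart the cells of set 1. It took 10.2% to 17.5% of the reads of Eno1 and Eno1b in all 8 cells of set 1, and 2.59% to 4.37% in the other 88 cells, without overlap. Gm4735 is a processed pseudogene 99.6% identical to Eno1 and 99.8% identical to Eno1b, each over 1302 bases. It took 6.74% to 13.4% of the reads shared with Eno1 in set 1 and 2.35% to 3.67% elsewhere. Eno1b and Gm4735 may share reads, so they are not 2 independent signs of a difference. Eno1 itself overlapped, with 3971 to 8066 CPM in set 1 and 945 to 7927 CPM elsewhere. In CPM, Eno1b and Gm4735 were the 2 of 14463 genes (0.0138%) whose 8 cells of set 1 lay outside the range of all others, and no gene did so for any of the other 11 sets. The cause was not tested. The intraclass correlation of Eno1b was 0.88 over all cells, with 71.4% of its sum of squares between sets, and 0.67 without set 1. Eno1 and Eno1b had a rho of 0.87 over all cells and 0.95 without set 1.

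**Figure D5:**
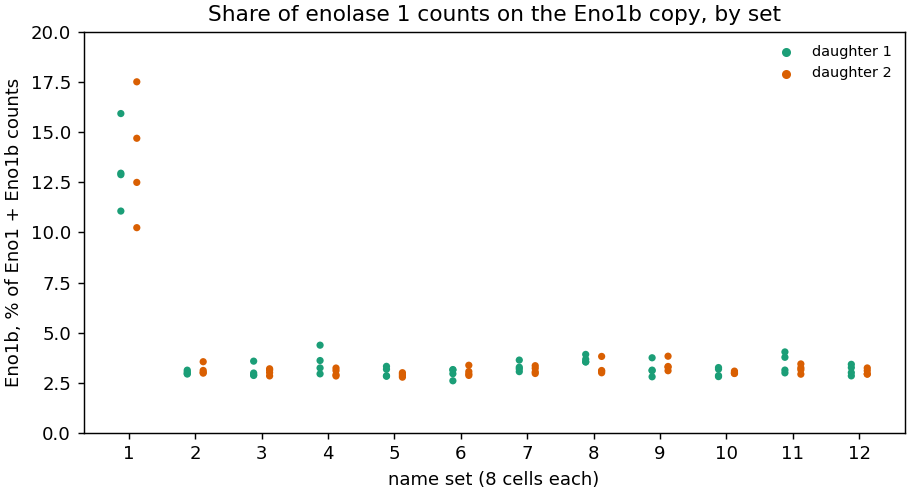
Points give, for each of 96 cells, the percent of Eno1 and Eno1b counts that fell on Eno1b, by name set and coloured by daughter. The 8 cells of set 1 lie between 10.2% and 17.5%, above the 88 cells of the other 11 sets.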

How the data were processed

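Per the submitters' processing notes and the study's methods, reads were trimmed (Trimmomatic 0.39), aligned to GRCm38 with the ERCC sequences (STAR 2.7.11a) and quantified on Ensembl release 100 (StringTie 2.2.1). The authors deposited integer counts per gene without normalization, and TPM per gene, scaled with the ERCC transcripts included. Use of strand in counting is not given in the sources used here, and reads were not counted by molecule.

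Levels are TPM. Other values used counts on genes as CPM, or divided by ERCC size factors (median of ratios over 22 of 92 ERCC transcripts counted in all cells), which ran from 0.38 to 1.89, with a pseudocount of 1. The filter kept 14463 genes that had 10 counts or more in 10% of the cells. The text names all 37 members, markers and listed genes, the 10 genes most and the 10 least like the HIF-target score, and listed pathway genes at the extremes. Slc2a3, Hk3 and the genes at 0 were named after their values were seen, as were the counts of cells by 100 and 1000 reads and the pairs described singly. Members and lists were chosen with earlier results of these data known. The calculations were checked on simulated data. Python 3.11.15, numpy 2.4.6, scipy 1.17.1, pandas 2.3.3, matplotlib 3.10.9 and blastn 2.17.0 were used. No groups were compared, since the labels give 1 condition.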

Additional observations from a re-analysis of the deposited data

How the results depend on the processing

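The 9 summary results were recomputed under 162 alternatives in all, not every kind for every result: other scalings (ERCC, median of ratios, TPM), pseudocounts, filters, Pearson's coefficient and detection limits, values centred within sets, and each set left out. Of these, 154 stayed within 1.5 times of the value given. The number of members with an intraclass correlation of at least 0.5 was 9 without set 8 and ranged from 9 to 18 when each set was left out. The median rho of sister differences among HIF targets ranged from 0.045, without set 12, to 0.11. With only members counted in every cell, the median share of pairs at 1.5-fold was 40.6%, the median rho over cells was 0.32 among HIF targets and 0.48 among enzymes, and that of sister differences among enzymes was 0.20. Scaled to ERCC, the enzymes had 0.46 over cells and 0.28 in sister differences. Adding the reads of copies and leaving out Eno1b were chosen after seeing the data. Read sharing limits Eno1, Eno1b, Pgam1, Pgk1 and Gapdh, and the amplification of single cells limits genes near 0.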
